A study of Mus musculus with 4 samples.

Results

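Semaphorins, plexins, ephrins, Eph receptors, Slits, Robos and netrin receptors guide growing axons and growing vessels. The 32 genes described here were chosen by symbol from these families: 12 semaphorins, 6 plexins, 2 netrin receptors, 4 Slit or Robo genes, 4 ephrins and 4 Eph receptors. Of them, 18 encode ligands and 14 encode receptors. All 32 are among the 31054 features of both mRNA count matrices. The data are single-cell transcriptomes of endothelial cells, which line blood and lymphatic vessels, from the ears of C57BL/6 mice at postnatal day 8. The cells had been enriched by CD31 and then sorted for life, for CD31 and for the Rtom reporter of Cdh5CreERT2, a tamoxifen-inducible Cre driven by the promoter of the endothelial cadherin Cdh5. The 2 libraries are biological replicates of 1 group, so every comparison sets cell types against each other within libraries, and every test rests on 2 libraries. The sources used here do not say whether a library came from 1 mouse or from pooled mice.

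Semaphorins act through plexins, and most secreted class 3 semaphorins need a neuropilin (Nrp1 or Nrp2) as co-receptor. Ephrins sit in the membrane of one cell and bind Eph receptors on its neighbour, and Efnb2 and Ephb4 are the textbook markers of arteries and veins. Slits bind Robo receptors. Unc5b and Neo1 are receptors for netrins and related ligands, and Robo4 is an endothelial Robo that can bind Unc5b.

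The libraries contained 1745 and 2877 barcodes with 15989249 and 26675353 UMIs (unique molecular identifiers, 1 per captured mRNA molecule). Filters left 1497 and 2235 cells, whose medians were 8458 and 8980 UMIs. The libraries shared 3 barcodes. Cells were clustered without the guidance genes and named by markers, which gave 5 classes with cells from libraries 1 and 2: lymphatic-like (268 and 521 cells), tip-like (141 and 214), capillary-like (263 and 303), artery-like (256 and 278) and vein-like (100 and 97). Tip cells lead vascular sprouts. The vein-like class was cluster 9 alone. Cluster 7 (38 and 1 cells) had the vein markers Vwf and Ctsh, but also the large artery marker Mgp, among its leading genes. It fell under the minimum of 20 cells per library and was in no class. The 12 lymphatic markers summed to 15620 and 19330 CPM (UMIs per 1000000 UMIs of the class) in lymphatic-like cells, against at most 213.6 CPM in any blood class. The 14 artery markers summed to 10980 and 9219 CPM in artery-like cells, and the 11 vein markers to 4516 and 4792 CPM in vein-like cells, against 713.2 and 696.1 CPM in artery-like cells. The 12 tip markers summed to 2775 and 2766 CPM in tip-like cells, against 1410 and 1614 CPM in capillary-like cells, so that label is one of degree. Fabp4, a fatty acid carrier fixed as a capillary marker, was higher in vein-like cells (20180 and 19100 CPM) than in capillary-like cells (12810 and 9212 CPM). The other 13 capillary markers summed to 5938 and 5791 CPM in capillary-like cells, against 2102 and 2360 CPM in vein-like cells. The 12 genes of activation or tissue dissociation summed to 11290 and 16100 CPM in vein-like cells, to 5880 and 9813 CPM in artery-like cells and to between 3417 and 5567 CPM in the other 3 classes. The part of these genes in the comparisons with vein-like cells was not tested.

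The promoters of 6 genes on which the results turn are shown to compare these genes at the sequence level. Sema3g, Unc5b and Efnb2 had their highest level in artery-like cells, Ephb4 in vein-like cells with lymphatic-like cells next, and Sema3d and Neo1 in lymphatic-like cells. RefSeq promoter windows on GRCm38.p6 matched 28 of the 32 genes by symbol (36 windows). Each sequence gives the 250 bases before an annotated transcription start, 5′ to 3′ on the gene's strand, with capitals for GC boxes (GGGCGG or, on the other strand, CCGCCC).
Sema3g, chr14:31217623-31217872, plus strand: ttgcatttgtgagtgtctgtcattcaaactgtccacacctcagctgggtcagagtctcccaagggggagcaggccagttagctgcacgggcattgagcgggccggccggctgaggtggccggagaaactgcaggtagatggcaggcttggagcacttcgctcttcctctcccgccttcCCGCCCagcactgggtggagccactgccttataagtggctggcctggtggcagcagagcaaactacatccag
Unc5b, chr10:60831582-60831831, minus strand: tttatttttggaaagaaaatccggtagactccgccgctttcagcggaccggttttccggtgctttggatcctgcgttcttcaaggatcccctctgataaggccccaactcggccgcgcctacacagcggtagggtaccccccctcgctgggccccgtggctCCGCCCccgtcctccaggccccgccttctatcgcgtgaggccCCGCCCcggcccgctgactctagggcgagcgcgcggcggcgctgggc
Efnb2, chr8:8661243-8661492, minus strand: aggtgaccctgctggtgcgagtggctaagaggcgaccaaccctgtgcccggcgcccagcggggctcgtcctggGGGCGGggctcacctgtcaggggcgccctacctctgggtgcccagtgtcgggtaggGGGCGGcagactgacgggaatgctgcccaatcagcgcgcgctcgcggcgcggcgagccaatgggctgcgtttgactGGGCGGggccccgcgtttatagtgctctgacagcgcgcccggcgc
Ephb4, chr5:137349859-137350108, plus strand: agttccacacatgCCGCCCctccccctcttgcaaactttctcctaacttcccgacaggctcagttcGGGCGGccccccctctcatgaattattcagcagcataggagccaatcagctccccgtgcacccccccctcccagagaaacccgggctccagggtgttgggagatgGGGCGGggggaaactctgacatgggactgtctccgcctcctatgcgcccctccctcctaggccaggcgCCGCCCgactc
Sema3d, chr5:12382916-12383165, plus strand: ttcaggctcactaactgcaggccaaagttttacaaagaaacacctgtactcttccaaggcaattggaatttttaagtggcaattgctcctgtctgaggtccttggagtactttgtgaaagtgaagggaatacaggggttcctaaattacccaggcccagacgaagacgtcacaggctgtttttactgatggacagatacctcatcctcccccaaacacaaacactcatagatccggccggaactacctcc
Neo1, chr9:59036442-59036691, minus strand: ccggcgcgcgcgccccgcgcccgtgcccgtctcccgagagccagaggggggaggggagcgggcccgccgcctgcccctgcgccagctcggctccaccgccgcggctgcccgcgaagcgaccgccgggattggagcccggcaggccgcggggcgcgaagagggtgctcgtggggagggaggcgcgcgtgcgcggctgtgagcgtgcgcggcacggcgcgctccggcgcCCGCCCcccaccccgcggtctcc

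A GC box occurred in 27 of the 36 guidance gene windows (75.0%), against 32.7% of all 32851 windows. The core letters TGGGAA, known from binding of the Notch effector RBPJ, occurred on either strand in 5 of the 36 windows (13.9%), against 21.6% of all windows. The core ACAAT of SOX factors occurred in 4 windows (11.1%), against 27.7% of all. None of the 6 printed windows held TGGGAA or ACAAT on either strand. The Sema3d window had no GC box and 46.8% G or C, whereas the other 5 printed windows had 60.4% to 83.2% G or C. In GENCODE vM21 (GRCm38), the genes behind these windows are protein-coding: Efnb2 spans chr8:8617434-8661242 on the minus strand and Ephb4 spans chr5:137350109-137378669 on the plus strand, each beginning at the end of its window.

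Levels of single genes are CPM after TMM scaling, a correction for differences in RNA composition. Of the 32 genes, 29 had enough UMIs to be tested between classes, and 28 of these differed among the 5 classes (edgeR quasi-likelihood test with Benjamini-Hochberg adjustment, adjusted p under 0.05), against 49.5% of the 10777 genes tested. The exception was Plxna1, a plexin that works with neuropilins, at 3.38 to 9.83 CPM in every class and library (adjusted p = 0.981). Genes that passed the count filter only through the class where they were high had to differ, so this count is a description. Artery-like cells had the highest mean level of 9 of the 18 ligands, of which Sema3c rested on 4 UMIs, and of 2 of the 14 receptors. Vein-like cells had the highest level of 1 ligand and 4 receptors. Lymphatic-like cells were highest for 5 ligands and for 3 receptors, of which Ephb2 rested on 1 UMI, tip-like cells for 2 and 3, and capillary-like cells for 1 and 2. The share of all genes that were highest in each class was not computed, so these counts describe the members only. The order of mean levels carries no test where neighbouring classes overlap, as they did for Sema4c, at 23.7 to 46.2 CPM across all libraries and classes.

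**Figure D1:**
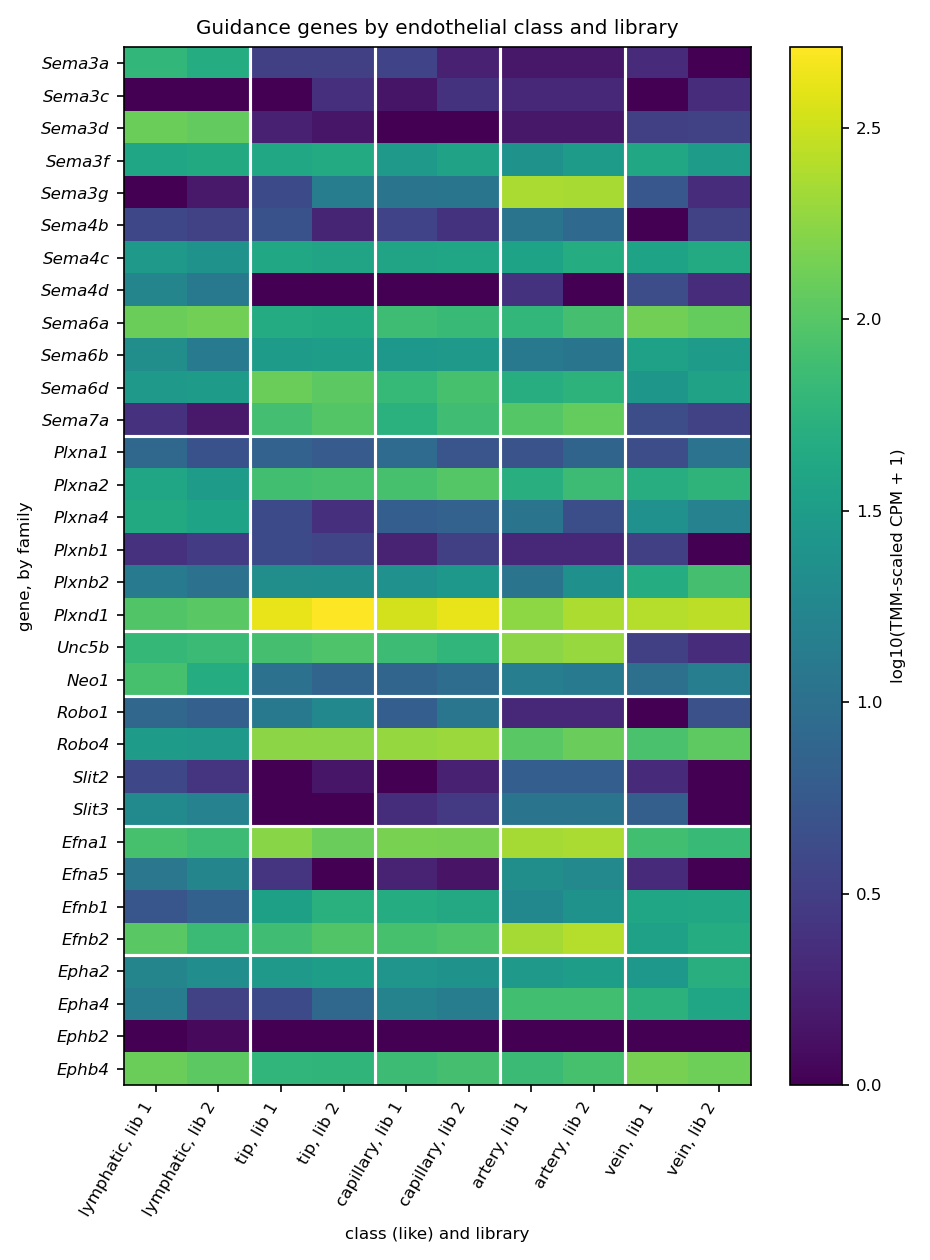
Level of each guidance gene (rows, grouped by family) in each class and library (columns), as log10 of TMM-scaled CPM plus 1 on a colour scale. Both libraries of a class look alike for the abundant genes: Sema3g is bright only in the artery columns (232.5 and 228 CPM) and Sema3d only in the lymphatic columns (126.2 and 115.1 CPM).

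The first comparison set artery-like against vein-like cells. The artery-like class carried far more mRNA of the ligands Sema3g, Sema7a, Efna5 and Efnb2 and of the receptor Unc5b. Vein-like cells carried more of the receptors Ephb4, Plxnb2 and Plxna4 and of the transmembrane semaphorins Sema6a and Sema6b. In all, 8 members were higher in artery-like cells (7 ligands and 1 receptor), 7 were lower (3 ligands and 4 receptors) and 14 did not pass. The 7 ligands include Sema4b, which passed the count filter only through artery-like cells and so had to differ. The counts that include it are a description. Of all 10777 genes tested, 8.09% were higher and 8.29% lower, 16.4% in either direction. The median log2 change was 0.75 over the 17 ligands tested and -0.32 over the 12 receptors tested, beside -0.01 over all genes. The 17 ligands include Sema4b and Slit2, which both passed the count filter only through artery-like cells. The ligand median, and its distance from the receptor median, are therefore a description as well.

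Among the ephrins, Efnb2 stood at 223.0 and 254.3 CPM in artery-like cells, against 34.9 and 46.7 CPM in vein-like cells. The groups did not overlap, and the log2 change was 2.55 ± 0.23 (SE; adjusted p = 3.99e-07). Efna1, a ligand of EphA receptors, stood at 218.6 and 233.9 CPM in the artery-like class and 76.6 and 67.6 CPM in the vein-like class (log2 1.65 ± 0.16, adjusted p = 9.38e-07). Efna5, another EphA ligand, gave 78 UMIs in artery-like cells and 1 UMI in vein-like cells, a ratio of 33.0 with an exact 95% counting interval of 5.74 to 1320 (adjusted p = 0.000497). Such intervals cover counting error only. Efnb1 went the other way, with 17.4 and 23.8 CPM in the artery-like class and 38.3 and 40.6 CPM in the vein-like class (log2 -0.94 ± 0.26, adjusted p = 0.0185). The Eph receptors differed less: Ephb4, the receptor of Efnb2, stood at 69.1 and 83.4 CPM in artery-like cells, against 140.8 and 127.8 CPM in vein-like cells (log2 -0.82 ± 0.16, adjusted p = 0.00122). Epha4, which binds ephrins of both classes, had 77.0 and 76.5 CPM in the artery-like class and 54.1 and 38.1 CPM in the vein-like class and did not pass (log2 0.75 ± 0.32, adjusted p = 0.143). Epha2 did not pass either (log2 -0.34 ± 0.24, adjusted p = 0.413).

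Among the semaphorins, Sema3g, a secreted ligand that uses Nrp2, stood at 232.5 and 228.0 CPM in artery-like cells, against 4.51 and 1.23 CPM in vein-like cells, which together held 5 of its UMIs. The log2 change was 6.27 ± 0.39 (adjusted p = 9.63e-09), and the ratio of summed counts was 78.3 (exact interval 33.5 to 242). Nrp2 had the opposite pattern, with 22.4 and 21.4 CPM in the artery-like class and 389.7 and 318.3 CPM in the vein-like class (log2 -4.02 ± 0.19, adjusted p = 3.36e-10). Sema7a, which is anchored in the membrane by a lipid, stood at 97.9 and 115.7 CPM in artery-like cells, against 3.38 and 2.46 CPM in vein-like cells (log2 5.15 ± 0.34, adjusted p = 1.66e-08). Sema6d, a ligand of Plxna1, was higher by less (48.2 and 55.1 CPM in the artery-like class, against 25.9 and 35.6 CPM in the vein-like class; log2 0.75 ± 0.24, adjusted p = 0.0383). Sema4b rested on 35 UMIs in artery-like and 2 in vein-like cells, with an exact interval of 1.90 to 63.5 for the ratio (adjusted p = 0.0362). It had at most 3.83 CPM in a library of any other class and passed the count filter through the artery-like class. Its values are a description. Sema6a and Sema6b, ligands of class A plexins, were lower in artery-like cells. Sema6a had 62.1 and 80.5 CPM in the artery-like class and 134.0 and 116.7 CPM in the vein-like class (log2 -0.82 ± 0.16, adjusted p = 0.00139). Sema6b had 11.4 and 10.4 CPM in the artery-like class and 34.9 and 29.5 CPM in the vein-like class (log2 -1.55 ± 0.31, adjusted p = 0.0017).

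Among the other receptors, Unc5b stood apart from the rest. It gave 172.9 and 195.2 CPM in artery-like cells, against 2.25 and 1.23 CPM in vein-like cells. That is 741 UMIs against 3, a ratio of 104 with an exact interval of 35.6 to 507 (adjusted p = 4.26e-10). The plexins were lower in artery-like cells where they passed. Plxnb2, a receptor for class 4 semaphorins, had 9.94 and 21.9 CPM in the artery-like class and 46.2 and 79.9 CPM in the vein-like class (log2 -1.98 ± 0.28, adjusted p = 7.45e-05). Plxna4 had 9.94 and 3.48 CPM in the artery-like class and 22.5 and 14.8 CPM in the vein-like class (log2 -1.48 ± 0.40, adjusted p = 0.0164). Plxnd1, the main endothelial plexin, lay just under the threshold (177.3 and 240.4 CPM in the artery-like class, against 254.6 and 272.8 CPM in the vein-like class; log2 -0.35 ± 0.12, adjusted p = 0.0492). Robo4 did not pass (log2 0.23 ± 0.15, adjusted p = 0.345), and neither did the Slits, with 22 UMIs of Slit2 in the artery-like and 1 in the vein-like class (adjusted p = 0.0906) and 40 UMIs of Slit3 in the artery-like and 5 in the vein-like class (adjusted p = 0.0971). Sema4b, Sema6d, Efnb1, Plxna4 and Plxnd1 missed the threshold in DESeq2, and Sema6a, Sema6b, Efna5, Efnb1, Plxna4 and Plxnd1 missed it with a stricter cell filter, under which Sema4b had too few UMIs to be tested. With cells taken by marker gates, Epha4 and Slit2 also passed as higher and Sema3d as lower. Sema3g, Sema7a, Efna1, Efnb2, Unc5b, Plxnb2 and Ephb4 passed under all 3 of these settings. Sema4b, Sema6d, Plxna4 and Plxnd1 missed the threshold without the library block, Plxna4 and Plxnd1 at clustering resolution 1.5, and Sema6b and Efnb1 at resolution 0.6. Plxnd1 also missed it without a count filter. Slit3 and Epha4 passed as higher without a count filter, Slit2 at resolution 1.5 and Robo4 at resolution 0.6. Slit2 had at most 2.91 CPM in a library of any other class and passed the count filter only through the artery-like class. Its values and its passes under other settings are a description. As differences of log2 CPM with no test, the values without library 1 were -0.18 for Plxnd1, -0.53 for Sema6a and 1.32 for Sema4b, against -0.35, -0.82 and 2.46 with both libraries.

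**Figure D2:**
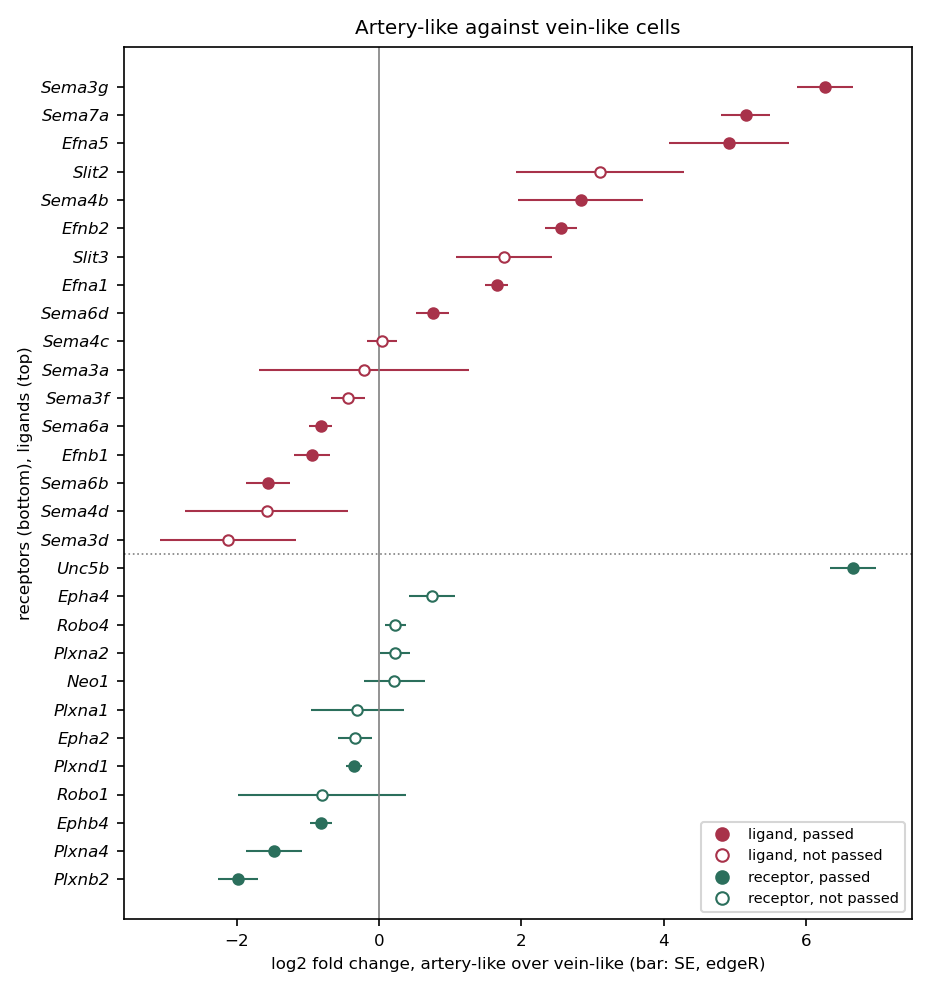
Log2 fold change of artery-like over vein-like cells for the 29 tested guidance genes, ligands above the dotted line and receptors below it, with bars for the SE. Filled points passed the adjusted threshold: 7 of the 8 filled points to the right of 0 are ligands, and Unc5b is the receptor among them. The ligands include Sema4b, which passed the count filter only through artery-like cells.

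Of a list of 44 other guidance ligands and receptors, 11 had enough UMIs to be tested, and 3 passed, all lower in artery-like cells. Beside Nrp2 these were Flrt2, a ligand of Unc5 receptors (3.97 and 5.46 CPM in the artery-like class, against 51.8 and 62.7 CPM in the vein-like class; log2 -3.58 ± 0.33), and Robo2. Robo2 was scarce and passed the count filter through the vein-like class (9.01 and 8.60 CPM), so its call is a description. Of 22 signalling partners of guidance receptors, 19 were tested, 4 were higher and 5 lower in artery-like cells. The tyrosine kinase Fes was higher (log2 1.32 ± 0.22, adjusted p = 0.00031), and Rnd1, a small GTPase that binds plexins, was lower (log2 -1.38 ± 0.23, adjusted p = 0.000338). Rnd1 also differed between libraries, at 68.6 and 284.1 CPM in the artery-like class and 173.5 and 755.8 CPM in the vein-like class.

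Capillary-like cells were compared with the average of artery-like and vein-like cells on the log scale. The receptors Robo4, Plxnd1, Plxna2 and Robo1 and the ligands Sema6d and Efnb1 were higher in capillary-like cells than in both vessel classes in each library. Of the 29 genes tested, 8 were higher and 4 lower, beside 7.32% and 8.48% of all genes (15.8% in either direction). Of the 8 higher members, 5 were receptors. Robo4 had 192.8 and 202.3 CPM in capillary-like cells, against 104.3 and 121.2 CPM in the artery-like class and 84.5 and 108.1 CPM in the vein-like class (log2 0.93 ± 0.10, adjusted p = 7.42e-06). Plxnd1 had 336.6 and 412.7 CPM in capillary-like cells (log2 0.67 ± 0.09, adjusted p = 4.62e-05) and Plxna2, a receptor of Sema6a, 82.4 and 98.7 CPM (log2 0.69 ± 0.15, adjusted p = 0.00429). Robo1, a Slit receptor, was scarce, with 41 UMIs in capillary-like cells and 7 in the vessel classes together (log2 2.55 ± 0.56, adjusted p = 0.00412), and its call was lost when cells were taken by marker gates. Sema6d reached 64.0 and 83.1 CPM (log2 0.89 ± 0.16, adjusted p = 0.000804) and Efnb1 46.8 and 42.3 CPM (log2 0.64 ± 0.18, adjusted p = 0.0187).

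Unc5b and Sema7a also passed as higher (log2 1.85 ± 0.27 and 1.84 ± 0.24), but their levels in capillary-like cells lay between those of the vessel classes, because the comparison averages a high arterial and a very low venous level. For Unc5b, capillary-like cells had 71.5 and 60.2 CPM, and as a ratio of summed counts they stood at 0.505 of artery-like and vein-like cells together. Epha4 was lower, with 15.5 and 12.96 CPM in capillary-like cells, below both vessel classes (log2 -2.06 ± 0.32, adjusted p = 0.000187). Sema6a and Ephb4 also passed as lower (log2 -0.44 ± 0.13 and -0.42 ± 0.13). Ephb4 stood at 71.9 and 79.6 CPM in capillary-like cells, within the range of artery-like cells and below vein-like cells. Sema3d passed on 0 UMIs in capillary-like cells against 6 in the vessel classes (exact upper bound of the ratio 0.97). Sema3d, Sema6a, Efnb1 and Ephb4 missed the threshold in DESeq2, without the library block and with the stricter cell filter, under which Robo1 had too few UMIs to be tested. With marker gates, Sema3d, Sema6a and Ephb4 missed the threshold. Sema6a and Ephb4 also missed it at clustering resolution 1.5, and Sema3d without a count filter. Sema3g passed as lower in DESeq2, at resolution 1.5 and without a count filter, although its capillary-like level lay between those of the vessel classes. Sema4d, Plxna4 and Slit3 passed as lower without a count filter. With marker gates, Efna5 and Efnb2 passed as lower and Sema6b as higher. Of the other guidance genes, Ntn1 was lower (log2 -3.31 ± 0.64, adjusted p = 0.00166), and of the signalling partners Dpysl3, a collapsin response mediator, was higher (log2 0.68 ± 0.11, adjusted p = 0.000385). Ntn1 was scarce, with 1 and 1 UMIs in capillary-like cells, 11 and 6 in artery-like cells and 4 and 4 in vein-like cells.

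The 2 capillary-like clusters differed in several members, which is given as a description only. Cluster 1, led by Car4 and Timp4, had 109.5 and 81.4 CPM of Unc5b, 98.5 and 97.5 CPM of Sema6a, 64.4 and 62.5 CPM of Efnb1 and 23.0 and 24.6 CPM of Epha4. Cluster 6, led by Col13a1 and Lrat, had 41.3 and 47.6 CPM of Unc5b, 53.3 and 48.2 CPM of Sema6a, 33.4 and 29.7 CPM of Efnb1 and 9.54 and 5.29 CPM of Epha4. For these 4 genes the clusters did not overlap, but they are examples. Other members did not overlap either, such as Efnb2 and Robo4 (higher in cluster 1) and Neo1 and Robo1 (lower in cluster 1). The share of all genes without overlap was not computed.

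Few guidance genes passed between the tip-like and the capillary-like class, and Sema6d and Sema6a moved in opposite directions. Of 29 members tested, 2 passed (1 higher and 1 lower), beside 4.73% of all genes (2.61% higher and 2.12% lower), and both were ligands. At an unadjusted p under 0.05 there were 11. Sema6d was higher, with 126.5 and 105.6 CPM in tip-like and 64.0 and 83.1 CPM in capillary-like cells (log2 0.64 ± 0.15, adjusted p = 0.0197). Sema6a was lower, with 46.0 and 43.2 CPM in tip-like and 72.8 and 67.1 CPM in capillary-like cells (log2 -0.66 ± 0.16, adjusted p = 0.0251). Plxnd1 had its highest level in tip-like cells, at 414.7 and 513.4 CPM against 336.6 and 412.7 CPM in capillary-like cells, and did not pass (log2 0.31 ± 0.10, adjusted p = 0.108). Unc5b had 79.7 and 92.2 CPM in tip-like and 71.5 and 60.2 CPM in capillary-like cells (adjusted p = 0.162), and Robo1 had 11.5 and 17.5 CPM in tip-like and 5.44 and 10.7 CPM in capillary-like cells (adjusted p = 0.272). Neither passed, although their libraries did not overlap. Efnb2 differed by -0.02 ± 0.18 and Efna1 by 0.01 ± 0.13 on the log2 scale.

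Both calls were lost in DESeq2, without the library block and with the stricter cell filter. At the finer clustering resolution of 1.5, Sema6d was also lost, while Sema6a passed and Plxna2 and Robo4 passed as lower in tip-like cells (log2 -0.65 and -0.42). Without a count filter, Epha4 also passed as lower. As a difference of log2 CPM with a prior count of 2 and no test, Sema6d changed by 0.34 without library 1, against 0.66 with both libraries. With cells taken by marker gates in place of clusters, 8 members passed: Sema3f, Sema6d, Sema7a, Plxnd1, Unc5b and Robo1 as higher in tip-like cells and Sema3g and Sema6a as lower. Of the signalling partners, Dpysl3 and Dpysl2, both collapsin response mediators, were higher in tip-like cells (log2 0.95 ± 0.11, adjusted p = 9.62e-05, and log2 0.58 ± 0.11, adjusted p = 0.00394). Flrt2 was the 1 other guidance gene that passed, as lower (log2 -0.99 ± 0.27, adjusted p = 0.0486).

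**Figure D3:**
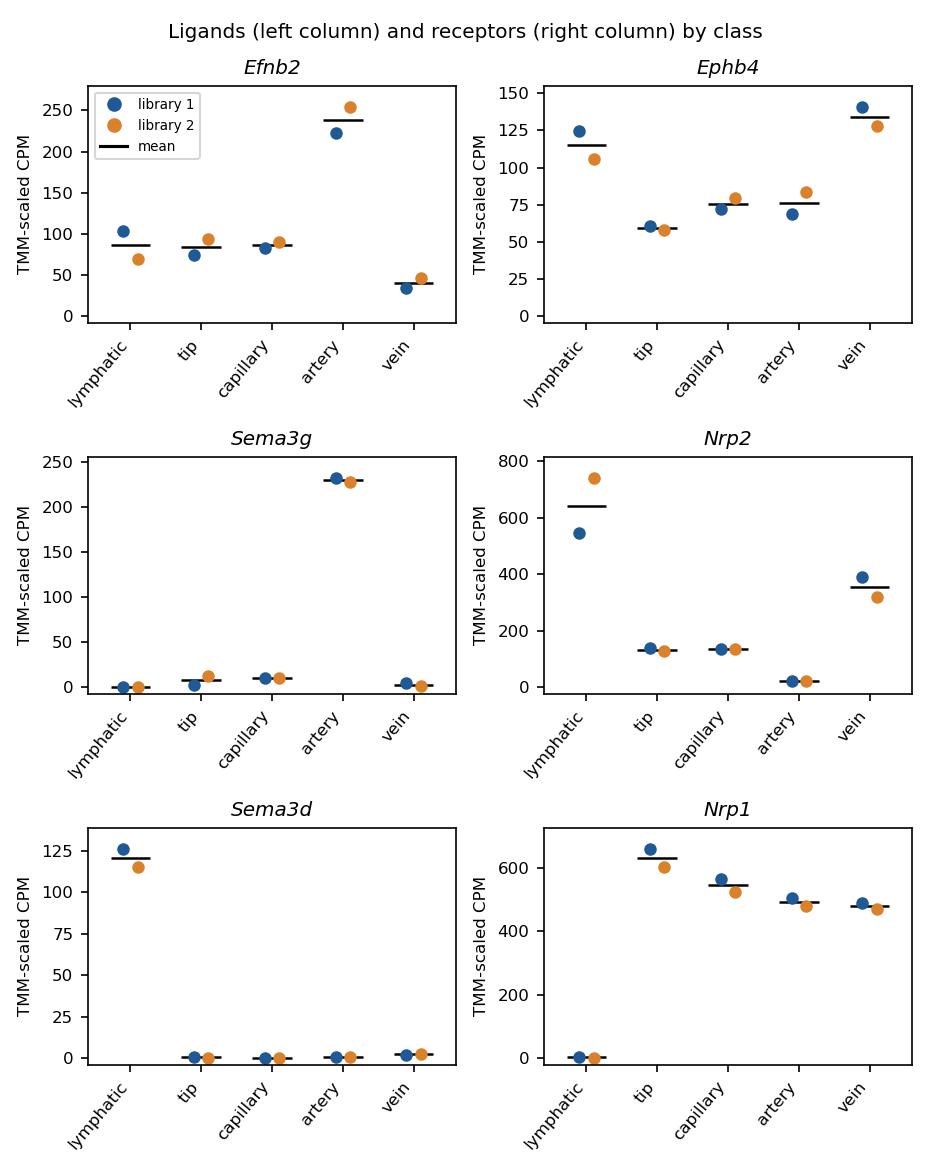
TMM-scaled CPM of 3 ligands (left) and of a receptor of each (right) in the 5 classes, with 1 point per library and a line at their mean. Efnb2 and Sema3g are highest in artery-like cells while Ephb4 and Nrp2 are high in vein-like and lymphatic-like cells, and Sema3d is high in lymphatic-like cells, where Nrp1 is near 0 (4.73 and 1.80 CPM).

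Lymphatic-like cells were compared with the average of the 4 blood classes on the log scale. They had more mRNA than the blood classes of the secreted semaphorins Sema3d and Sema3a, the membrane semaphorin Sema4d and the receptors Neo1 and Plxna4, and less of Sema7a, Sema3g, Efnb1, Robo4 and Plxnd1. In all, 10 members were higher and 13 lower of 29 tested, beside 22.1% and 20.7% of all genes (42.8% in either direction). Genes that were scarce in every blood class, such as Sema3d, Sema3a and Sema4d, passed the count filter through the lymphatic-like class and so had to differ, which makes their values, and the count of 10 that includes them, a description.

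Sema3d, a secreted ligand of Nrp1 and Plxnd1, had 126.2 and 115.1 CPM in lymphatic-like cells, against at most 2.46 CPM in a blood class. That is 987 UMIs against 8, a ratio of 212 with an exact interval of 107 to 492 (log2 8.02 ± 0.20, adjusted p = 3.86e-14). Sema3a, a repulsive ligand that acts through Nrp1 and class A plexins, had 61.1 and 46.9 CPM in lymphatic-like cells, against 0 to 2.51 CPM in the blood classes (log2 5.64 ± 0.23, adjusted p = 3.41e-12). Sema4d rested on 107 UMIs in lymphatic-like cells and 7 in the blood classes, a ratio of 26.3 (exact interval 12.3 to 66.9; adjusted p = 3.19e-07). Slit3 was also higher, with 18.6 and 14.9 CPM in lymphatic-like cells and 9.94 and 9.93 CPM in artery-like cells, the nearest class (log2 3.69 ± 0.41, adjusted p = 1.56e-06). That log2 change is against an average that includes tip-like cells with 0 UMIs, and the ratio to the pooled blood classes was 4.34 (exact interval 3.14 to 6.09). Efna5 was higher than the blood average (log2 3.23 ± 0.40, adjusted p = 3.8e-06) but at 10.9 and 16.2 CPM stood below artery-like cells (20.9 and 17.9 CPM), and its ratio to the pooled blood classes was 2.45 (exact interval 1.84 to 3.28). Sema6a, at 125.1 and 134.0 CPM, overlapped vein-like cells (134.0 and 116.7 CPM; log2 0.84 ± 0.10, adjusted p = 2.15e-06).

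Of the receptors, Neo1 had 82.2 and 46.9 CPM in lymphatic-like cells, against 6.69 to 13.5 CPM in the blood classes (log2 2.69 ± 0.17, adjusted p = 9.19e-10). Plxna4 had 43.3 and 36.7 CPM, against 22.5 and 14.8 CPM in vein-like cells, the nearest class (log2 2.69 ± 0.19, adjusted p = 4.36e-09). Neither gene was high throughout the lymphatic-like class. Its cluster 11, described below, had 9.11 and 11.1 CPM of Neo1 and 9.11 and 13.3 CPM of Plxna4. Ephb4 had 124.7 and 105.7 CPM, close to vein-like cells (log2 0.47 ± 0.10, adjusted p = 0.000938). Unc5b passed as higher against the average of the log levels (log2 0.83 ± 0.17, adjusted p = 0.000807), whereas as a ratio of summed counts it was lower, at 0.69 (exact interval 0.624 to 0.762). The average of log levels counts each blood class equally, including the vein-like class with its 3 UMIs.

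Sema7a gave 7 UMIs in lymphatic-like cells and 1077 in the blood classes (log2 -5.40 ± 0.48, adjusted p = 7.65e-08), and Sema3g gave 3 UMIs in lymphatic-like cells and 1016 in the blood classes, a ratio of 0.00507 (exact interval 0.00104 to 0.0149; adjusted p = 7.51e-06). Efnb1 had 4.36 and 5.93 CPM in lymphatic-like cells, against 17.4 to 51.7 CPM in the blood classes (log2 -2.74 ± 0.21, adjusted p = 8.33e-09). Robo4 had 29.5 and 27.3 CPM, against 84.5 to 202.3 CPM (log2 -2.30 ± 0.11, adjusted p = 4.12e-11), and Plxnd1 92.4 and 103.6 CPM, against 177.3 to 513.4 CPM (log2 -1.68 ± 0.09, adjusted p = 1.55e-10). For these 3 genes the lymphatic-like libraries lay below every blood library. Epha4, Plxnb2, Plxna2, Sema6d, Efna1, Epha2, Sema4c and Sema6b were also lower than the blood average, with log2 changes between -1.91 (Epha4) and -0.57 (Sema6b). Of these, Plxna2, Epha2 and Sema4c lay below every blood library. Efna1 and Sema6d overlapped vein-like cells, Plxnb2 artery-like cells and Epha4 tip-like cells. Sema6b, at 21.1 and 12.2 CPM, lay above artery-like cells (11.4 and 10.4 CPM). Efnb2 did not pass, with 103.6 and 70.0 CPM in lymphatic-like cells (log2 -0.12 ± 0.14, adjusted p = 0.533), but it passed as lower with the stricter cell filter and with marker gates (log2 -0.72 and -0.37). Sema6b missed the threshold in DESeq2, and Sema4c, Sema6b, Sema7a, Epha2 and Ephb4 missed it with the stricter cell filter, which left too few UMIs to test Sema4d and Slit3. Sema6b also missed it at clustering resolution 0.6 and without cluster 11. Sema3f passed as higher at resolution 0.6, Robo1 with marker gates and Slit2 without cluster 11. As differences of log2 CPM with no test, Epha4 changed by -2.90 without library 1, by -0.75 without library 2 and by -1.83 with both. Sema6b changed by -0.85 without library 1, by -0.19 without library 2 and by -0.52 with both.

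Of the 11 other guidance ligands and receptors tested, 7 were higher and 3 lower in lymphatic-like cells, beside 22.1% and 20.7% of all genes. The genes tested include some, such as Ntn1, that were scarce in every blood class and passed the count filter through the lymphatic-like class. These had to differ, so the counts are a description. Nrp1 had 4.73 and 1.80 CPM in lymphatic-like cells, against 471.9 to 660.0 CPM in the blood classes (log2 -7.53 ± 0.18, adjusted p = 5.68e-15). Nrp2, which is also a VEGF-C co-receptor, had 544.4 and 740.7 CPM, above every blood class (log2 2.56 ± 0.10, adjusted p = 1.82e-12). The netrin Ntn1 had 136.4 and 128.2 CPM, against 0.381 to 5.46 CPM in the blood classes (log2 6.18 ± 0.16, adjusted p = 1.62e-14). It passed the count filter through the lymphatic-like class and so had to differ, which makes its values a description. Of 19 signalling partners tested, 6 were higher and 7 lower, and Mical2, a redox enzyme of the family that acts below plexins, was higher (145.8 and 139.9 CPM in lymphatic-like cells, 2.93 to 36.0 CPM in the blood classes).

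Within the lymphatic-like class, cluster 13 (46 and 34 cells) was compared with clusters 0 and 11. Its 6 markers of valves or collecting vessels summed to 1957 and 1238 CPM, against 645.2 and 471.1 CPM in cluster 0 and 255.6 and 238.2 CPM in cluster 11. The 6 markers did not all point to cluster 13. Cldn11 and Foxc2 were among its leading genes, whereas Foxp2 was among those of cluster 0. Of 29 members tested, 4 were higher and 4 lower, beside 7.39% and 7.93% of all genes (15.3% in either direction). Neo1 had the largest change among them: 408.1 and 424.9 CPM in cluster 13, against 15.2 and 32.1 CPM in cluster 0 and 9.11 and 11.1 CPM in cluster 11 (log2 4.70 ± 0.19, adjusted p = 1.92e-17). Cluster 13 held 337 of the 487 Neo1 UMIs of the lymphatic-like class. Sema3a had 115.1 and 134.6 CPM in cluster 13, against 57.3 and 50.3 CPM in cluster 0 and 27.3 and 30.6 CPM in cluster 11 (log2 1.61 ± 0.20, adjusted p = 6.79e-07). Sema3d had 171.6 and 230.4 CPM, against 124.0 and 120.0 CPM in cluster 0 (log2 0.87 ± 0.16, adjusted p = 0.000292). Ephb4 had 163.3 and 173.5 CPM, against 129.2 and 125.5 CPM in cluster 0 (log2 0.80 ± 0.17, adjusted p = 0.000829). For these 4 genes cluster 13 lay above the other clusters in both libraries.

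Sema6b gave 2 UMIs in cluster 13 and 124 in clusters 0 and 11, a ratio of 0.148 (exact interval 0.0177 to 0.545; adjusted p = 0.0168). Epha2 had 6.28 and 2.99 CPM in cluster 13 (4 UMIs), against 16.4 and 23.3 CPM in cluster 0 and 23.7 and 19.9 CPM in cluster 11 (adjusted p = 0.0183). Robo4 had 12.6 and 2.99 CPM in cluster 13 (7 UMIs), against 31.0 and 29.1 CPM in cluster 0 and 40.1 and 29.2 CPM in cluster 11 (adjusted p = 0.0178). All 3 genes were lowest in cluster 13 in both libraries. Efna1 had a log2 change of -0.88 ± 0.25 (adjusted p = 0.0152). Sema6b and Epha2 missed the threshold in DESeq2. Efna5 also passed as lower without a count filter. Nrp2 was lower in cluster 13 (79.5 and 185.5 CPM, against 532.8 and 679.0 CPM in cluster 0; log2 -2.60 ± 0.18, adjusted p = 4.04e-12), and so was the receptor Ephb1 (log2 -2.43 ± 0.33, adjusted p = 2.46e-06). Between clusters 0 and 11, compared without a test, Efnb2 had 140.4 and 99.2 CPM in cluster 0 and 14.6 and 31.0 CPM in cluster 11, and Plxna4 had 58.5 and 53.3 CPM in cluster 0 and 9.11 and 13.3 CPM in cluster 11. Plxnd1 had 70.2 and 71.1 CPM in cluster 0 and 160.3 and 157.2 CPM in cluster 11. Cluster 11 took 39 cells from library 1 and 166 from library 2.

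**Figure D4:**
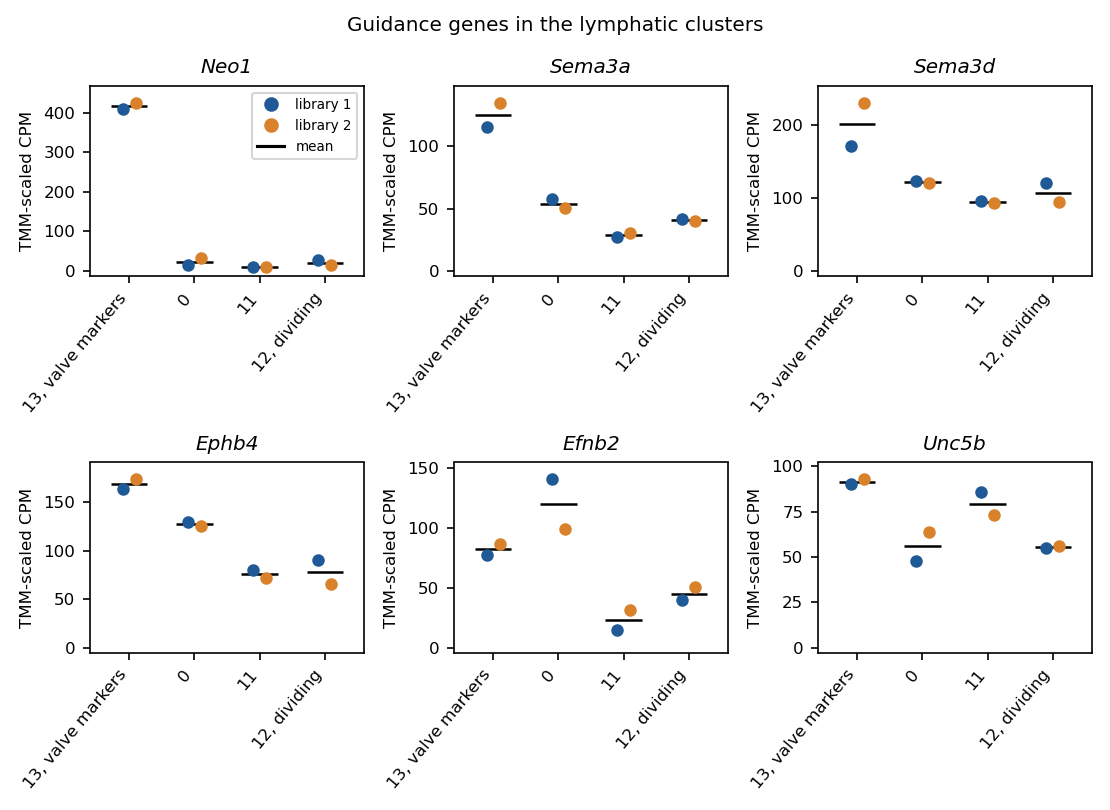
TMM-scaled CPM of 6 guidance genes in lymphatic-like clusters 13, 0 and 11 and in dividing lymphatic cluster 12, with 1 point per library and a line at their mean. Neo1 is at 408.1 and 424.9 CPM in cluster 13 and at most 32.1 CPM in the other 3, whereas Efnb2 is lowest in cluster 11 (14.6 and 31.0 CPM).

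Within the artery-like class, cluster 3 was compared with cluster 10. Cluster 3 carried markers of large arteries (8 genes summing to 14460 and 11280 CPM, against 1490 and 1458 CPM in cluster 10), and cluster 10 was led by Cxcl12 and Gja4. Of 29 members tested, 3 were higher and 3 lower, beside 4.18% and 3.94% of all genes (8.11% in either direction). The ligands Sema3g, Efna5 and Slit2 were higher. Sema3g had 355.1 and 314.8 CPM in cluster 3 and 108.6 and 163.0 CPM in cluster 10 (log2 1.31 ± 0.19, adjusted p = 8.9e-06). Efna5 gave 74 UMIs in cluster 3 and 4 in cluster 10, a ratio of 19.9 (exact interval 7.45 to 74.9; adjusted p = 5.28e-06), and Slit2 gave 21 UMIs in cluster 3 and 1 in cluster 10, a ratio of 22.6 (exact interval 3.63 to 934; adjusted p = 0.0163). Slit2 had at most 4.68 CPM in a library of any other cluster. It passed the count filter through cluster 3 and so had to differ. Its values, and the count of 3 higher that includes it, are a description. Unc5b was lower (117.4 and 138.9 CPM in cluster 3, 235.8 and 246.3 CPM in cluster 10; log2 -0.91 ± 0.20, adjusted p = 0.00164), and so were Plxnd1 (log2 -0.60 ± 0.16, adjusted p = 0.0161) and Sema6b (9 UMIs in cluster 3 and 35 in cluster 10; log2 -1.84 ± 0.53, adjusted p = 0.0241). Efnb2 (247.5 and 286.8 CPM in cluster 3, 202.7 and 234.4 CPM in cluster 10) did not pass (log2 0.29 ± 0.17, adjusted p = 0.412). Slit2 and Unc5b missed the threshold in DESeq2, Plxnd1 without the library block, and Unc5b and Sema6b with the stricter cell filter. That filter left too few UMIs to test Slit2. Without a count filter, Sema7a and Robo4 also passed as lower in cluster 3 and Epha4 as higher. Nrp2 was lower in cluster 3 as well (6.85 and 5.60 CPM, against 39.3 and 34.8 CPM; log2 -2.54 ± 0.46, adjusted p = 0.00021).

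**Figure D5:**
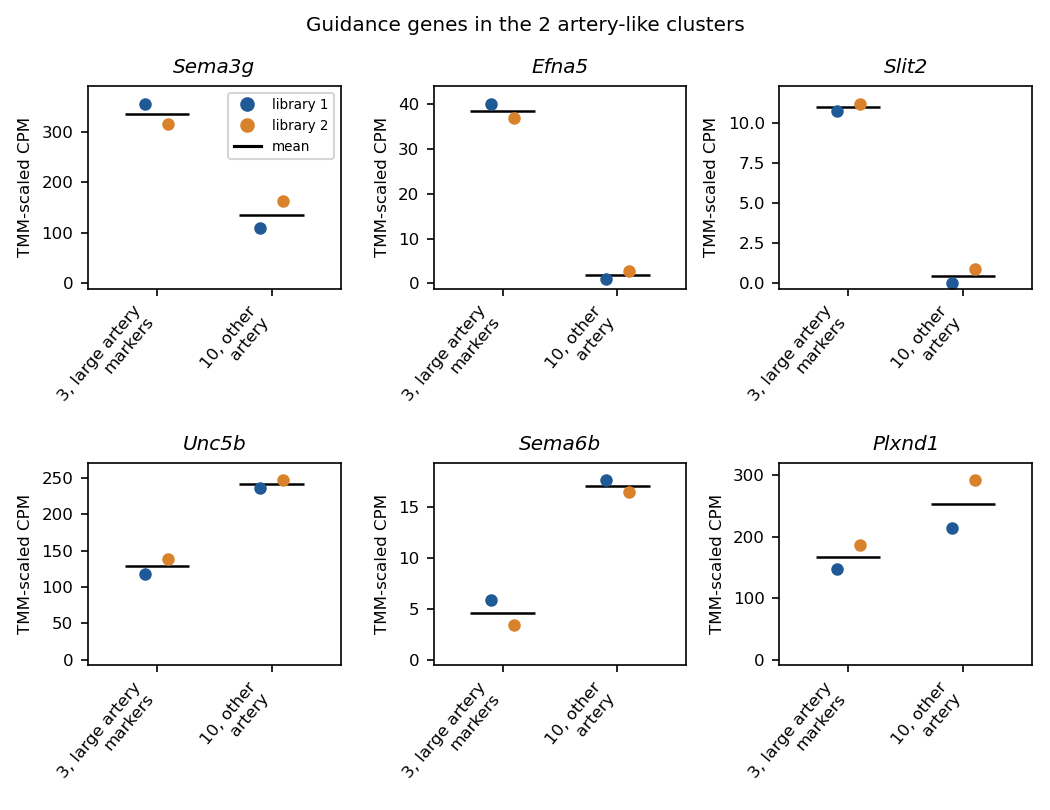
TMM-scaled CPM of 6 guidance genes in artery-like clusters 3 and 10, with 1 point per library and a line at their mean. The top row holds the 3 ligands that were higher in cluster 3, such as Sema3g (355.1 and 314.8 against 108.6 and 163.0 CPM), and the bottom row the 3 genes that were lower there.

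Dividing blood endothelial clusters 4 and 5 were compared with capillary-like clusters 1 and 6. Of 29 members tested, 6 passed, all lower in dividing cells, beside 12% of all genes lower and 10.2% higher (22.2% in either direction). Unc5b had 21.7 and 37.5 CPM in cluster 4 and 23.1 and 41.9 CPM in cluster 5, against 109.5 and 81.4 CPM in cluster 1 and 41.3 and 47.6 CPM in cluster 6 (log2 -1.05 ± 0.22, adjusted p = 0.000631). The log2 change was -0.79 ± 0.18 for Efnb2 (adjusted p = 0.00158), -0.79 ± 0.19 for Sema7a (adjusted p = 0.00254) and -0.71 ± 0.15 for Sema6a (adjusted p = 0.000541). It was -0.63 ± 0.15 for Plxna2 (adjusted p = 0.00304) and -0.40 ± 0.12 for Robo4 (adjusted p = 0.0154). Median UMIs per cell were 10902 and 13196 in clusters 4 and 5, against 6847 and 7871 in clusters 1 and 6, and the part of depth was not tested. Robo4 missed the threshold in DESeq2, and with the stricter cell filter 1 of the 6 passed, Sema6a. As a difference of log2 CPM with no test, Unc5b changed by -0.63 without library 1, against -1.08 with both libraries.

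Cluster 8, led by Cxcl10 and Ccl5 with activation genes at 8902 and 13750 CPM, carried no class name and is given without a test. It had 7.39 and 29.6 CPM of Unc5b, 28.7 and 67.2 CPM of Efnb2 and 15.6 and 53.4 CPM of Sema7a. In capillary-like cells Unc5b had 71.5 and 60.2 CPM, Efnb2 83.2 and 90.3 CPM and Sema7a 53.1 and 75.5 CPM, so library 1 differed more than library 2.

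Set side by side as ligand and receptor, 24 of 30 listed pairs had both genes tested, and in 5 of them both were highest in the same class. These were Sema3a and Sema6a with Plxna4 in lymphatic-like cells, and Efna1, Efna5 and Efnb2 with Epha4 in artery-like cells. In the other 19 pairs the partners were highest in different classes. These pairs include Robo4 with Unc5b, which are both counted as receptors here. In 9 of these 19 pairs, and in 1 of the 5, the highest class of a partner overlapped another class, as for Plxna1, which did not pass between classes. Efnb2 was highest in artery-like and Ephb4 in vein-like cells. Sema3g was highest in artery-like cells and its co-receptor Nrp2 in lymphatic-like cells, where Sema3g gave 3 UMIs. Sema3d was highest in lymphatic-like cells, and Nrp1 and Plxnd1 in tip-like cells. Slit2 was highest in artery-like, Slit3 in lymphatic-like and Robo1 in tip-like cells. These are places of highest mean mRNA and say nothing of protein or binding.

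The 3 genes under the count filter were scarce in all endothelial cells of both libraries. Sema3c gave 8 and 17 UMIs among 13506899 and 21695071, and Plxnb1, a receptor of Sema4d, gave 17 and 37. Ephb2 gave 0 UMIs in library 1, where 3 UMIs would be 0.222 CPM, and 1 UMI in library 2. Sema3e, a Plxnd1 ligand outside the 32 genes, gave 0 UMIs in both libraries (3 UMIs would be 0.222 and 0.138 CPM).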

How the data were processed

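The 2 deposited mRNA matrices hold whole-number UMI counts, not normalized by the authors. The submitters' processing notes name Cell Ranger, Seurat 3.0.2 and mm10, without roles. The file headers name software version 3.0.2. How barcodes were selected before deposit is not given. The antibody tag libraries were not used.

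Barcodes with under 500 genes (26 and 45) or over 10% mitochondrial UMIs (240 and 616) were left out, and Scrublet in scanpy 1.11.5 marked 3 and 15 doublets (0.48% of 3750 kept cells), which is too low a share to trust the caller, so doublets may remain. Free RNA was not corrected for. Counts were scaled to 10000 per cell, and the 1000 most variable genes, without the 32 members, both gene lists, mitochondrial and ribosomal genes, were centred per library. With 30 principal components, 15 neighbours and Leiden resolution 1.0, 19 clusters of all cells and, after pericyte, keratinocyte, erythroid and immune clusters (301 cells) were left out, 15 endothelial clusters were found. They were named from 20 marker sets. The vein-like class had Sele and Csf3 among its leading genes.

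Sums of UMIs over the cells of a class, 1 per library, entered edgeR 4.0.16 in R 4.3.3 (TMM, filterByExpr, quasi-likelihood test, Benjamini-Hochberg over all genes, threshold 0.05) with the library as a block, with 4 residual degrees of freedom between classes and 12 between clusters. The block is taken because each class comes from both libraries: the correlation of library deviations between classes was 0.124 to 0.202 over 10 class pairs. SE is the log2 change over the square root of F. Members and lists were chosen with earlier results of these data known. Named genes were all 32 members and up to 4 genes per comparison of the other lists with the smallest adjusted p. Alternatives were DESeq2 1.42.0, RLE factors, no count filter, no block, stricter cells (1000 genes, 5% mitochondrial), resolutions 0.6 and 1.5 and marker gates.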

Additional observations from a re-analysis of the deposited data

How the results depend on the processing

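No member that passed a test changed direction under any alternative that could be fitted. With DESeq2, the members passing in the comparison of tip-like with capillary-like cells numbered 0, against 2, and the genes passing overall numbered 1046 (artery-like against vein-like, against 1765), 918 (capillary-like, 1703), 237 (tip-like, 510), 2983 (lymphatic-like, 4609) and 3547 (any class, 5331). Without the library block (no pairing of classes by library), 0 members and 244 genes passed between tip-like and capillary-like cells, and 11 of 15 members passed between artery-like and vein-like cells. At an unadjusted p under 0.05, edgeR gave 11 members in that tip-like comparison, DESeq2 6, the fit without the block 8 and the stricter cell filter 5. With the stricter cell filter, which left 39 and 15 vein-like cells and 23 testable members, the members passing numbered 8 (artery-like), 7 (capillary-like), 0 (tip-like), 3 (cluster 3) and 1 (dividing), with 693, 659, 230, 305 and 1084 genes overall. The genes passing overall were 2573 for lymphatic-like cells and 2848 for any class. That filter also left 2 cells of cluster 13 in library 2, so its comparison could not be run. With marker gates, 8 members passed for tip-like cells. At resolution 0.6 no capillary-like class formed. Leaving out 1 library leaves no residual degrees of freedom, so only log2 changes with no test could be computed, with a prior count of 2. They kept the sign for all members that had passed, and those over 1.5 times off the same estimate from both libraries are named beside the results. The lymphatic-like class without cluster 11, an alternative chosen after seeing the data, gave 23 members. The stricter filter holds fewer cells by construction, and the cause of the other differences was not tested. Low counts limit how exactly the changes of Sema4b, Sema4d, Efna5, Slit2 and Robo1 are known, whose low classes held at most 7 UMIs. Other members, such as Unc5b, Sema3g, Sema7a, Sema3d and Slit3, also had a low class with at most 7 UMIs. The sizes of their changes are limited in the same way.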
